A study of Mus musculus with 4 samples.

Results

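The conjugation enzymes of phase II metabolism were followed in mouse liver with and without NIPP1. They were the glutathione transferases of the alpha, kappa, mu, omega, pi, theta and zeta classes and the microsomal glutathione transferases. The UDP-glucuronosyltransferases of families 1 to 3 and the cytosolic sulfotransferases were also included. Members were chosen by gene name, whatever their values. Every non-control probe whose name in the array design began with Gst and a class letter, Mgst, Ugt1 to Ugt3 or Sult, or was BC021614, was taken. This gave 83 probes of 55 genes, among 39429 probes and 30397 gene names in all. BC021614 is now Gstp3, by its RefSeq accession. Total liver RNA came from 4 conditional liver NIPP1 knockout mice and 4 control mice, all untreated males of a mixed strain, aged 2 months. Each of 4 two-colour Agilent arrays carried 1 knockout and 1 control mouse, and no mouse was used on more than 1 array. The knockout RNA was in Cy3 on replicates 1 and 2 and in Cy5 on replicates 3 and 4. The labels do not name the Cre line, its promoter or whether controls carried floxed alleles or Cre. The comparison asks which transcripts differ in liver without NIPP1, a nuclear subunit of protein phosphatase 1 encoded by Ppp1r8.

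Phase II enzymes attach a polar group to drugs, hormones, bilirubin and reactive products of lipid oxidation, so that these can be carried into bile or blood by transporters. Glutathione transferases use glutathione, UDP-glucuronosyltransferases use UDP-glucuronic acid in the endoplasmic reticulum, and sulfotransferases use the activated sulfate PAPS in the cytosol. Hepatocytes are the main site of all these reactions, many of the genes respond to the xenobiotic sensors CAR, PXR, AHR and NRF2, and several have sex-biased levels in mouse liver. Among the latter, the Sult2a genes are female-predominant and the pi-class glutathione transferases male-predominant.

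All ratios below are log2 knockout over control on 1 array, and errors are limma standard errors over the 4 arrays unless stated otherwise. Since the fit has a dye term, such errors do not count a gap between the 2 Cy3 and the 2 Cy5 arrays, and the value of every array is given where a result turns on it. Per array and dye, 52.7% to 56.3% of spots exceeded background clearly by the scanner software's own mark, called well above background here, and no spot was saturated. The 2 probes of Ppp1r8 gave means of -0.68 ± 0.05 and -0.65 ± 0.05, with all 4 arrays below 0 for both, and each had a limma adjusted p of 0.0517. Hepatocyte markers such as Alb and Apoa1 gave a summed normalized intensity of 680693 to 1004330 over the mice. Markers of pancreatic acinar cells stood apart on replicate 1: their median ratio was 4.21 there and -2.64, -0.16 and -1.06 on replicates 2 to 4. The summed intensity of the 11 tested acinar markers was 4500 to 46769 over the knockout mice and 5016 to 12311 over the control mice. RNA of whole liver was measured, so fewer cells of a type and less RNA per cell cannot be told apart.

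Of the 83 probes, 67 of 44 genes were tested among 20831 probes, a probe being tested if at least 3 of the 4 mice of a genotype had it well above background, and 63 of the 67 were so in all 8 mice. No member reached a limma adjusted p under 0.05, where 0.202% of all tested probes were called, 0.144% higher and 0.0576% lower. At an unadjusted p under 0.05 there were 31 members, 23 higher and 8 lower in the knockout, or 46.3% of the members against 23.2% of all tested probes, of which 12.9% were higher and 10.3% lower. The higher ones include Gstm6 probes A_52_P264405 and A_55_P2031681 and the Mgst2 probe, which entered the test through the knockout mice only. The filter thus favoured their direction. At an adjusted p under 0.1 there were 5, or 7.46% against 6.71% of all tested probes, of which 4.05% were higher and 2.66% lower. They were Gstp3, Gstm4, Gstm6 and Gstt3, higher, and Gsto2, lower. This Gstm6 probe, A_52_P264405, was well above background in knockout mice only and entered the test through the group where it is high. Without it the count is 3 higher and 1 lower. Without replicate 1 the count was 7 higher and 3 lower, with 1.3% of all tested probes passing. Without replicate 2, 3 or 4 it was 0, where 0.149%, 0 and 0 of all tested probes passed, so these zeros say nothing about the members in particular. A limma fit took both dyes as separate channels, with the array as a random block. It put 22 members at an adjusted p under 0.05, where it called 10.0% of all tested probes higher and 7.58% lower. The 22 include Gstm6 probe A_52_P264405 and the Mgst2 probe, which entered the test through the knockout mice only. The same sign on all 4 arrays was seen for 15 higher and 5 lower members, or 29.9% against 24.4% of all tested probes (13.4% higher and 11.1% lower). The 15 include the Gstm6 and Mgst2 probes that entered the test through the knockout mice only. Of the member means 45 were above 0 and 22 below, where 49.9% of all tested probes were above 0. These Gstm6 and Mgst2 probes are among the 45 too.

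The members differed more in size than in the number of such calls. The median absolute mean ratio was 0.149 for members and 0.0933 for all tested probes, and 18 of the 67 members (26.9%) had a mean ratio above 0.5 or below -0.5, against 3.77% of all tested probes. They also varied more among mice of the same genotype. On the scale of normalized log2 intensity, the range over the 4 control mice had a median of 0.465 for members and 0.267 for all tested probes, and over the 4 knockout mice 0.458 and 0.254. In 8 members (11.9%), 7 of them higher and 1 lower in the knockout, the 4 knockout mice did not overlap with the 4 control mice, against 12.3% of all tested probes, 7.1% higher and 5.2% lower.

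**Figure D1:**
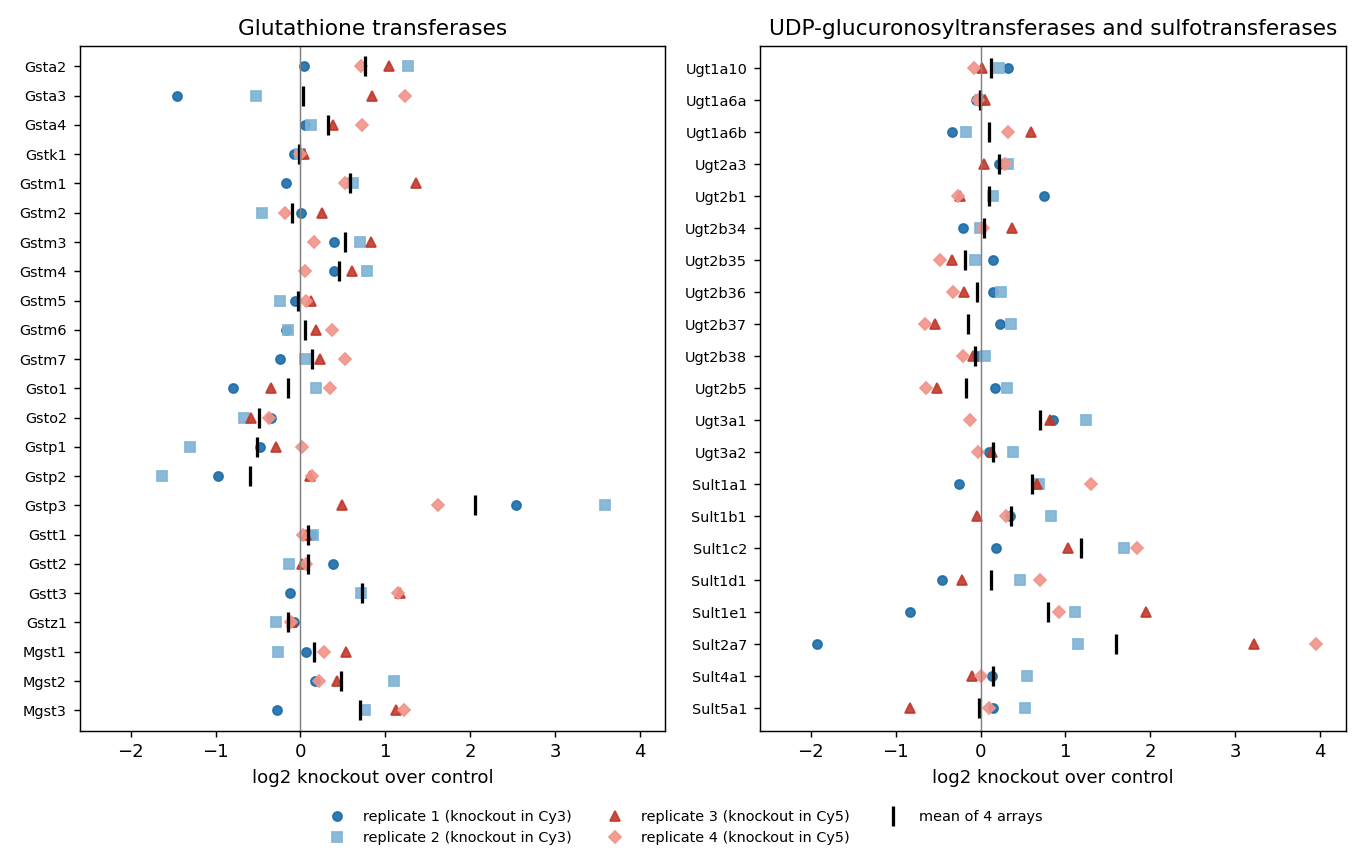
Log2 knockout over control of the brightest tested probe of each of the 44 tested member genes, on the horizontal axis, with 1 symbol for each of the 4 arrays and a black bar at their mean. Gstp3 lies above 0 on every array, at 0.49 to 3.58, whereas Sult2a7 runs from -1.92 on replicate 1 to 3.95 on replicate 4 and Gsta3 lies below 0 on the Cy3 arrays and above 0 on the Cy5 arrays.

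The pi class held both the largest increase among the members and 4 probes below 0. Gstp1, Gstp2 and Gstp3 are neighbours on chromosome 19, in that order in the RefSeq gene table, and encode cytosolic transferases, of which Gstp1 and Gstp2 are the abundant pi-class enzymes of mouse liver. Since Gstp1 and Gstp2 are near copies, the probes are shown first. Capitals in the first pair mark the bases at which they differ within their overlap, where 30 of 35 bases are identical (85.7%). The probe in the next line is listed for both genes by accession, and the last is that of Gstp3, which in its best ungapped overlap shares 39.3% to 45.5% of bases with the 3 others. Probes are read 5′ to 3′ in mm9, on the minus strand, from chr19:4035908-4036723, chr19:4040983-4041042, chr19:4037306-4037365 and chr19:4057988-4058137, in the order shown. The first and the last span more genome than their 60 bases and so cross at least 1 intron. No mm9 annotation was used, so whether each probe lies in coding sequence is not given.
Gstp1 probe A_51_P374464: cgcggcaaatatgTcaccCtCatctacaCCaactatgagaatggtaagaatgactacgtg
Gstp2 probe A_55_P2008704: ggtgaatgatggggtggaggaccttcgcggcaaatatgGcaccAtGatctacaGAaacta
Gstp1 and Gstp2 probe A_55_P2031668: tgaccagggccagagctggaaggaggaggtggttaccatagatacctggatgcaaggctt
Gstp3 probe A_51_P215559: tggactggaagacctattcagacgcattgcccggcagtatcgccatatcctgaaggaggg

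On replicates 1 to 4 the Gstp3 ratio was 2.54, 3.58, 0.49 and 1.62. All 4 arrays were above 0, the Cy3 arrays more so than the Cy5 arrays, with means of 3.06 and 1.05. The mean was 2.06 ± 0.26, or 4.16-fold, with a limma adjusted p of 0.0595. Leaving out 1 replicate at a time gave means of 1.78 to 2.34 and limma adjusted p-values of 0.0998 to 0.223. Median centring in place of loess gave 2.10 with a limma adjusted p of 0.0457, the lowest of the settings run. The limma adjusted p was 0.0792 with the processed signals of the scanner software and 0.0811 with background fitted on every spot. It was 0.0821 with separate channels and 0.15 without the dye term. In the main limma fit the dye term had an unadjusted p of 0.0165. Gstp3 also differed widely between mice of 1 genotype. Its normalized log2 intensity was 12.08, 11.01, 14.14 and 9.53 in the control mice of replicates 1 to 4 and 14.62, 14.59, 14.63 and 11.14 in the knockout mice. The knockout mouse was above its control on each array, but the genotypes overlapped, since the control mouse of replicate 3 was above the knockout mouse of replicate 4. The range over the control mice, 4.61, was larger than the ratio on any array.

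The Gstp1 and Gstp2 probes were all below 0 on average, with no adjusted p under 0.1. The probe of Gstp1 alone gave -0.47, -1.30, -0.29 and 0.02 on replicates 1 to 4, with a mean of -0.51 ± 0.16 (limma adjusted p 0.165). The Gstp2 probe in the second line above gave -0.29, -1.18, -0.40 and -0.23, with a mean of -0.53 ± 0.16 (limma adjusted p 0.164). Both were lowest on replicate 2, the array on which Gstp3 was highest. The probe listed for both genes gave -0.11, -0.94, -0.45 and -0.37, with a mean of -0.47 ± 0.15 (limma adjusted p 0.175). A second Gstp2 probe, A_55_P1957038 at chr19:4040283-4040342, gave -0.97, -1.63, 0.11 and 0.13. Its mean of -0.59 ± 0.12 (limma adjusted p 0.101) came from the Cy3 arrays only, and its dye term had an unadjusted p of 0.00337. The knockout and control mice overlapped for all 4 of these probes. Because hybridization can cross between near copies, the share of Gstp1 and of Gstp2 in these signals is uncertain.

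**Figure D2:**
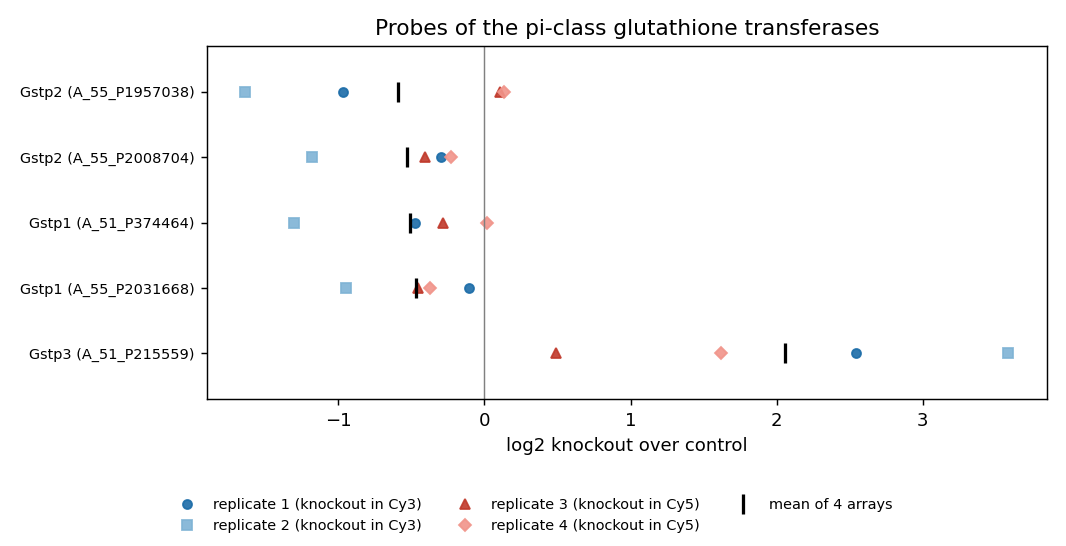
Log2 knockout over control of the 5 pi-class probes, on the horizontal axis, with 1 symbol per array and a black bar at the mean of 4 arrays. The Gstp3 probe has a mean of 2.06, and the 4 Gstp1 and Gstp2 probes have means of -0.47 to -0.59, with replicate 2 at the far end in both directions.

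The upstream sequences of the 3 pi-class genes are shown because the neighbours had ratios of opposite sign. Each line gives the 250 bases before the RefSeq start, 5′ to 3′ on the minus strand of GRCm38.p6, at chr19:4037913-4038162, chr19:4042222-4042471 and chr19:4059448-4059697. Capitals mark the letters TGAGTCAGC, a motif picked after the Gstp1 and Gstp2 sequences had been read.
Gstp1 upstream: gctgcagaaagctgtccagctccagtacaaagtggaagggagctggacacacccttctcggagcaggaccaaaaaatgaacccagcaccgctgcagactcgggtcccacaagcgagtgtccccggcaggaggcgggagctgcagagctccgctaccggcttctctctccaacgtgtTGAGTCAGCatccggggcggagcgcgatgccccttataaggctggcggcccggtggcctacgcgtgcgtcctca
Gstp2 upstream: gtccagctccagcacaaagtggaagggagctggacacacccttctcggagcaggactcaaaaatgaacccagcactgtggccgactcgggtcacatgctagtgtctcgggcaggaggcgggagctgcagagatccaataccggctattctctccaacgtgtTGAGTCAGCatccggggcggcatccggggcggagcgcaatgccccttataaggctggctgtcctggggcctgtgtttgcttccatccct
Gstp3 upstream: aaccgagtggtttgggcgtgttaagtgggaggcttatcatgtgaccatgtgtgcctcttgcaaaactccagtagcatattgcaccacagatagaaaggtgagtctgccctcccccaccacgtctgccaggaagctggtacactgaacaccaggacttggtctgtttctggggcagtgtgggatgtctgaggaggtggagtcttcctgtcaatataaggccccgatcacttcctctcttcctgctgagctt

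The letters TGAGTCAGC, a site that AP-1 and MAF proteins can bind, stood at -74 to -66 from the start of Gstp1 and at -89 to -81 from that of Gstp2, and not in the Gstp3 window. On either strand they were found in 114 of 32851 promoters of the same length (0.347%) and in no other member. Promoters were at hand for 47 of the 55 member genes, 58 promoters in all. Over both strands, TGACNNNGC, the core of the antioxidant response element, matched 4 of the 58 (6.9%) against 10.2% of all promoters, namely Gsta3, Gstm5, Gstm7 and Mgst1. The xenobiotic response element core GCGTG matched 10 of 58 (17.2%) against 28.2%, and in Gstm5 it overlapped the antioxidant core. The HNF1 core GTTAAT matched 10 of 58 (17.2%) against 6.43%, and the nuclear receptor hexamer AGGTCA 8 of 58 (13.8%) against 14.0%, 5 of these 8 in the Ugt2b genes. Such matches describe letters in these windows only.

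The alpha class, whose enzymes reduce lipid peroxides and conjugate 4-hydroxynonenal among other substrates, had 4 tested probes with a median of 0.19. Gsta2 gave 0.04, 1.26, 1.04 and 0.71, with a mean of 0.76 ± 0.22 (limma adjusted p 0.153). Gsta4, the 4-hydroxynonenal transferase, gave 0.05, 0.13, 0.38 and 0.73, with a mean of 0.32 ± 0.08 (limma adjusted p 0.115). Both were above 0 on every array, though replicate 1 was near 0 for each. Gsta3, a major alpha-class enzyme of mouse liver, split by dye orientation instead. Its probe A_51_P503625 gave -1.45, -0.52, 0.84 and 1.23, and its other probe -1.02, -0.15, 0.55 and 0.86. The means, 0.03 ± 1.24 and 0.06 ± 0.84 (SD, n = 4), therefore stand for a large spread and not for 4 small ratios. The 2 arrays of each orientation held different mice, so dye and mouse cannot be told apart for this split.

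The mu class had the most tested probes, 18, with a median of 0.10, and its genes lie side by side on chromosome 3. Gstm4 was the most even of the members at an adjusted p under 0.1. Its probe A_51_P327585 gave 0.25, 0.43, 0.52 and 0.38, with a mean of 0.40 ± 0.06, or 1.32-fold (limma adjusted p 0.0678). The 4 knockout mice, at a normalized log2 intensity of 12.05 to 12.27, were all above the 4 control mice, at 11.68 to 11.80. A second Gstm4 probe gave 0.40, 0.78, 0.61 and 0.05, with a mean of 0.46 ± 0.12 (limma adjusted p 0.138).

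Gstm1 and Gstm3 had the largest mean ratios of the mu class. Gstm3 gave 0.37, 0.82, 1.01 and 0.30 with probe A_55_P2102060, a mean of 0.63 ± 0.15 (limma adjusted p 0.118). Its other probe gave 0.40, 0.70, 0.83 and 0.16, a mean of 0.52 ± 0.13 (limma adjusted p 0.127). With both probes the knockout mice lay wholly above the control mice. Gstm1, an abundant liver transferase, gave 0.19, 0.70, 0.99 and 0.33 with the probe placed at chr3:107815595-107815654, a mean of 0.55 ± 0.15 (limma adjusted p 0.141), again with no overlap of the genotypes. The second probe named Gstm1 is placed by the array file on chromosome 5 and not at the gene, at chr5:117082490-117082549, and gave -0.17, 0.62, 1.36 and 0.53, with a mean of 0.59 ± 0.20. Mu-class genes are similar in sequence, so these probes may read more than 1 of them.

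Not all of the mu class shared this direction. The 3 Gstm2 probes had means of -0.09, -0.09 and -0.09, with replicates 2 and 4 below 0, and Gstm5, the brain and testis form, had -0.03 ± 0.06. The 3 Gstm7 probes had means of 0.06 to 0.14, with replicate 1 below 0 for all 3. Gstm6 had 5 tested probes with means from -0.05 to 0.25. The highest, A_52_P264405 at chr3:107745442-107745501, gave 0.06, 0.15, 0.35 and 0.41, with a mean of 0.25 ± 0.05 (limma adjusted p 0.0953). It was well above background in 3 knockout mice and in no control mouse, so the filter set the direction in which it could be tested, and its ratio is a bound of at least 1.18-fold. The 3 brighter Gstm6 probes had means of 0.07, -0.05 and 0.06 and did not share it.

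**Figure D3:**
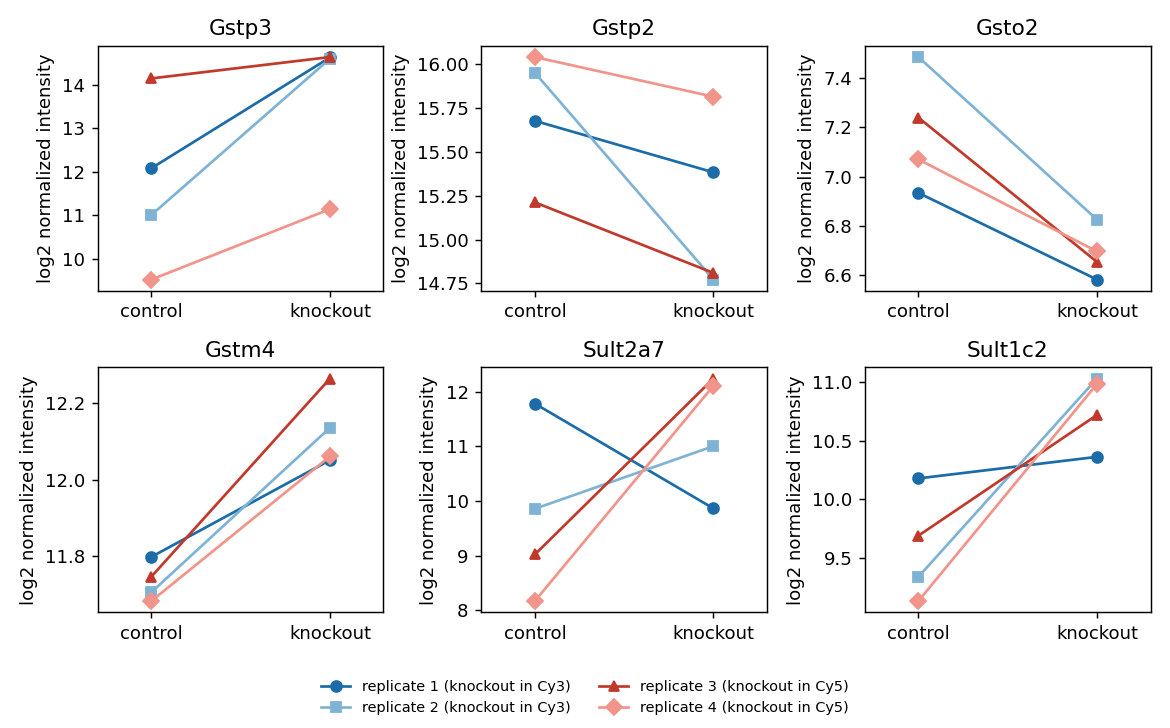
Normalized log2 intensity of the control and the knockout mouse of each array, for 1 probe each of 6 members, with a line joining the 2 mice of an array. All 4 lines go up for Gstp3, Gstm4 and Sult1c2 and down for Gstp2 (probe A_55_P2008704) and Gsto2, the control mice of Gstp3 spread from 9.53 to 14.14, and Sult2a7 goes down on replicate 1 only.

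Gsto2, an omega-class enzyme that reduces dehydroascorbate, was the member with the most even lower ratio. On replicates 1 to 4 it gave -0.35, -0.66, -0.59 and -0.37. Its mean was -0.49 ± 0.08, or 1.41-fold lower (limma adjusted p 0.0722), and every knockout mouse was below every control mouse. Gsto2 was dim, and the offset of 50 added to each signal narrows the ratios of dim spots. With the processed signals of the scanner software, which have no such offset, its mean was -1.10 (limma adjusted p 0.0643). Gsto1, its neighbour on chromosome 19, gave -0.79, 0.18, -0.34 and 0.35, with a mean of -0.15 ± 0.21.

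Among the theta class, which takes small halogenated substrates, Gstt3 gave -0.12, 0.71, 1.17 and 1.15. The mean was 0.73 ± 0.15, or 1.66-fold (limma adjusted p 0.0987), with replicate 1 near 0 and the 3 other arrays well above it. The 2 Gstt1 probes had means of 0.23 ± 0.06 and 0.09 ± 0.05, with all 4 arrays above 0 for both, and Gstt2 had 0.09 ± 0.10. Gstz1, which isomerizes maleylacetoacetate in tyrosine breakdown, had -0.14 ± 0.06, and Gstk1, of mitochondria and peroxisomes, had -0.01 ± 0.05. The zeta and kappa classes thus held only small ratios.

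Microsomal glutathione transferases are membrane proteins of another fold, and their 5 tested probes were all above 0 on average. Their median of 0.48 is the mean of the Mgst2 probe. That median was 0.25 without replicate 2 and 0.73 with the processed signals. Mgst3, a glutathione transferase and peroxidase of membranes, gave -0.46, 0.61, 1.26 and 1.37 with probe A_51_P215077, a mean of 0.70 ± 0.19 (limma adjusted p 0.14). A second Mgst3 probe gave -0.28, 0.76, 1.12 and 1.22, a mean of 0.71 ± 0.18 (limma adjusted p 0.13). Both probes put replicate 1 below 0 and the others above. Mgst2, which can make leukotriene C4, gave 0.17, 1.10, 0.43 and 0.22, with a mean of 0.48 ± 0.17 (limma adjusted p 0.198). It was well above background in 4 knockout and 2 control mice, so it entered the test through the knockout mice only, and the filter favoured its direction. With the processed signals its mean was 1.29. Mgst1, the abundant microsomal form, had 0.10 ± 0.10 and 0.15 ± 0.08 with its 2 probes.

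**Figure D4:**
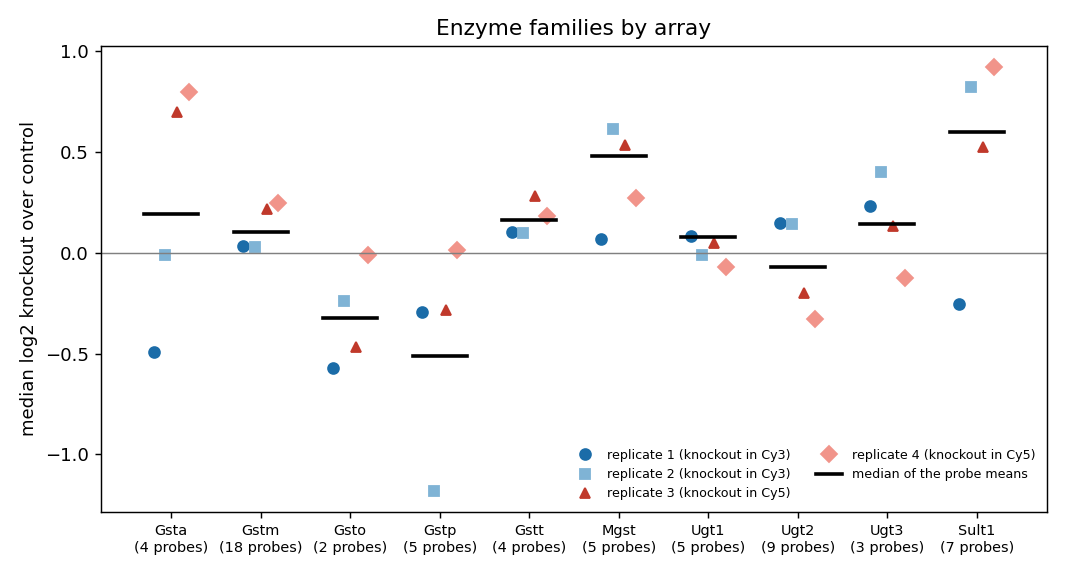
Median log2 knockout over control of the tested probes of each family with at least 2 of them, by array, with a black line at the median of the probe means. Mgst lies above 0 on all 4 arrays, at 0.07 to 0.61, and Sult1 on 3 of 4, whereas Ugt1 stays between -0.07 and 0.09 and Gsta runs from -0.49 to 0.80.

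UDP-glucuronosyltransferases had small mean ratios, with a median of 0.05 over 17 tested probes. The 5 Ugt1 probes are of the complex locus on chromosome 1 whose enzymes include the bilirubin transferase. Their means were -0.13 to 0.12, and none had an unadjusted p under 0.05 in limma, against 23.2% of all tested probes. Of the 5 probes, 3 are listed by accession for more than 1 gene of the locus, so they do not separate the isoforms. Ugt1a transcripts share their last exons, but no annotation was used to place these probes in exons. The brightest Ugt1a6b probe, shared with 3 other genes, gave -0.34, -0.17, 0.60 and 0.32, with a dye-term p of 0.00587.

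The Ugt2 family, which conjugates steroids, bile acids and drugs, had a median of -0.07 over 9 tested probes. Ugt2a3 was the one with the same sign throughout. It gave 0.22, 0.32, 0.05 and 0.29, with a mean of 0.22 ± 0.06 (limma adjusted p 0.155), and its knockout mice, at 13.52 to 13.67, lay above its control mice, at 13.34 to 13.48. Several Ugt2b genes instead split by dye orientation, in the direction opposite to Gsta3. Ugt2b5 gave 0.17, 0.31, -0.51 and -0.64, and Ugt2b37 gave 0.22, 0.36, -0.53 and -0.66. Their dye-term p-values were 0.00131 and 0.000922, and their means were -0.17 ± 0.48 and -0.15 ± 0.52 (SD, n = 4). Ugt2b36, whose probe is also listed for Ugt2b37, gave 0.15, 0.24, -0.20 and -0.33, and Ugt2b1 gave 0.75, 0.14, -0.24 and -0.26. Ugt2b35 had the lowest mean of the family with its brighter probe, -0.19 ± 0.06 (limma adjusted p 0.194).

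Over all members the dye term had an unadjusted p under 0.05 in 22 of 67 probes (32.8%), against 21.7% of all tested probes. Of the members, 8 (11.9%) were below 0 on both Cy3 arrays and above 0 on both Cy5 arrays, and 5 (7.46%) the reverse, against 13.6% and 10% of all tested probes. The 2 mice pairs of each orientation are not the same, so a dye effect and a difference between mice cannot be told apart for these members.

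Ugt3 enzymes use sugars other than glucuronic acid, Ugt3a1 taking N-acetylglucosamine. Ugt3a1 gave 0.85, 1.24, 0.82 and -0.12, with a mean of 0.70 ± 0.18, or 1.62-fold (limma adjusted p 0.129). Replicate 4 stood below the others. There the control mouse, at a normalized log2 intensity of 11.01, was above the 3 other control mice, at 9.93 to 10.35, while its knockout mouse, at 10.88, was close to the others. Ugt3a2 had 0.15 ± 0.07 and 0.10 ± 0.06 with its 2 probes.

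Sulfotransferases of family 1 had means above 0 with all 7 tested probes and a median of 0.60, which was 0.30 without replicate 2. None had a limma adjusted p under 0.1, where 6.71% of all tested probes passed. At an unadjusted p under 0.05 in limma 4 of the 7 were higher, against 12.9% of all tested probes higher and 10.3% lower. These 4 include both probes of Sult1a1. Sult1c2 gave 0.18, 1.69, 1.03 and 1.85, with a mean of 1.19 ± 0.29, or 2.28-fold (limma adjusted p 0.124). The 4 knockout mice were at normalized log2 intensities of 10.36 to 11.03 and the 4 control mice at 9.13 to 10.18, with no overlap.

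Sult1a1, the main phenol sulfotransferase, gave -0.25, 0.69, 0.66 and 1.30 with its brighter probe and -0.13, 0.83, 0.53 and 1.18 with the other. The means were 0.60 ± 0.20 and 0.60 ± 0.20 (limma adjusted p 0.184 and 0.189). Sult1e1, the estrogen sulfotransferase, gave -0.83, 1.12, 1.95 and 0.92, with a mean of 0.79 ± 0.38 (limma adjusted p 0.296) and of 1.24 with the processed signals. For both genes replicate 1 was below 0 and the 3 other arrays above. Sult1b1, which sulfates thyroid hormones and phenols, gave 0.35, 0.83, -0.05 and 0.30, with a mean of 0.36 ± 0.11 (limma adjusted p 0.167), and the 2 Sult1d1 probes had means of 0.13 and 0.15.

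Sult2a7, of the family that sulfates bile acids and hydroxysteroids, had the widest spread of all members. On replicates 1 to 4 it gave -1.92, 1.15, 3.23 and 3.95. The mean of 1.60 carried an SD of 2.63 (n = 4) and a limma adjusted p of 0.189, and its dye term had an unadjusted p of 0.0181. Normalized log2 intensities were 9.86, 11.01, 12.25 and 12.11 in the knockout mice and 11.79, 9.86, 9.02 and 8.17 in the control mice. The control mouse of replicate 1 was thus above the knockout mouse of replicate 2, and the knockout mouse of replicate 1 was the lowest of its genotype. Sult4a1, a brain form, and Sult5a1 had means of 0.15 ± 0.09 and -0.01 ± 0.18.

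Replicate 1 went against the other arrays in several members. Below 0 on replicate 1 and above 0 on replicates 2, 3 and 4 were 11 of the 67 members (16.4%), against 6.47% of all tested probes, a count made after their values were seen. They were probes of Gstm1, Gstm7, Gstt3, Mgst3, Sult1a1, Sult1d1, Sult1e1 and Sult2a7. The reverse pattern was found in 3 (4.48%), 1 of Ugt1a6b and 2 of Ugt2b35, against 6.55% of all tested probes.

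For genes with sex-biased levels in mouse liver, other than the members, the medians also differed in sign between replicate 1 and the other arrays. Single genes did not all follow them. The median of 10 female-biased genes, such as Slc22a26, Hao2 and Cyp2a4, was -0.40 on replicate 1 and 1.17, 2.15 and 1.42 on replicates 2 to 4, with all 10 means above 0. Slc22a26, Cyp2a4 and Prlr were above 0 on replicate 1 too, at 0.24, 0.66 and 0.23. The median of 12 male-biased genes, such as Cyp7b1, Hsd3b5 and Elovl3, was 0.46 on replicate 1 and -0.43, -1.12 and -0.87 on the others, with 11 of 12 means below 0. Slco1a1, C8a and Bcl6 were below 0 on replicate 1, at -0.30, -0.13 and -2.11. Bcl6 was above 0 on replicates 3 and 4, at 1.42 and 0.95. By mouse, the median normalized log2 intensity of the female-biased genes was 8.09 in the control of replicate 1 and 6.95, 7.51 and 7.03 in the other controls, against 7.93, 8.47, 10.11 and 9.14 in the knockout mice. The control mouse of replicate 1 was the highest of its genotype and the knockout mouse of that array the lowest of its own. Members of the male-predominant pi class did not all follow the male-biased median. The 4 Gstp1 and Gstp2 probes were below 0 on replicate 1, at -0.11 to -0.97, and Gstp3 was above 0 on all 4 arrays. All 8 mice are labelled male. The pancreatic acinar markers also set replicate 1 apart, with a median normalized log2 intensity of 12.03 in its knockout mouse and 6.37 to 9.78 in the 7 other mice. The part of either set of genes in the members' ratios was not tested.

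**Figure D5:**
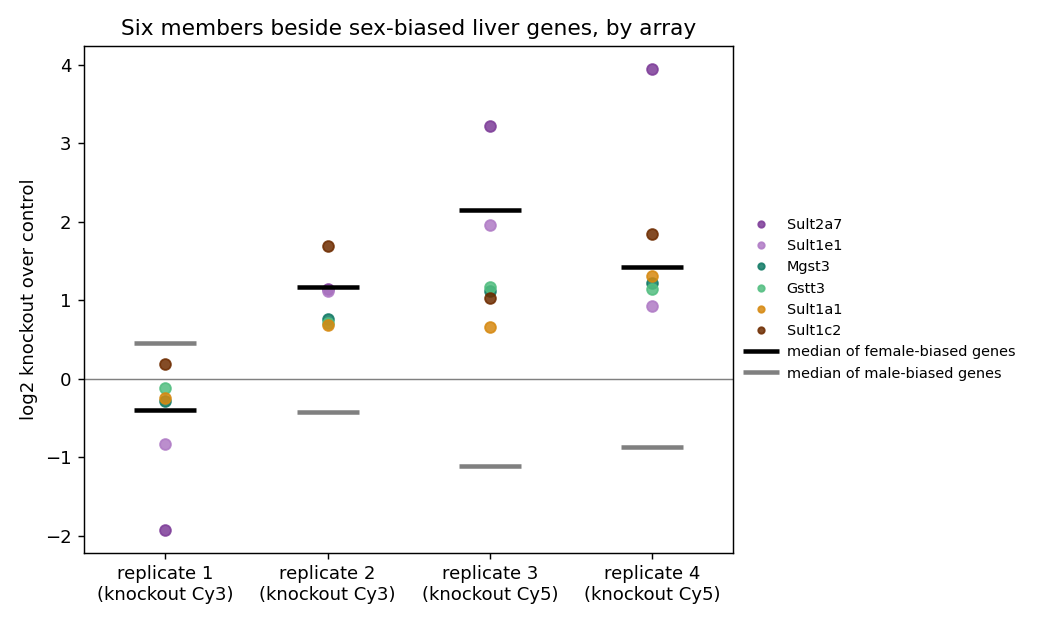
Log2 knockout over control on each array for 6 members (points, brightest probe of each gene) and the medians of 10 female-biased genes (black bars) and 12 male-biased genes (grey bars). The members shown were not taken by a rule, and 5 of the 6 are from those picked for lying below 0 on replicate 1 only. On replicate 1, 5 of the 6 members and the female-biased median lie below 0 and the male-biased median above, and on the 3 other arrays the positions are turned round.

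Cofactor supply and the steps after conjugation were read from lists of genes outside the members, with 1 probe per gene. At an adjusted p under 0.1 none of the 9 tested genes of glutathione supply passed, none of 10 of UDP-glucuronate supply and none of 10 of PAPS and sulfate supply. At an unadjusted p under 0.05 they held 1 higher and 2 lower, 3 higher and 1 lower, and 1 higher and none lower. Of all tested probes, 6.71% passed at the adjusted p, and 12.9% were higher and 10.3% lower at the unadjusted p. The largest ratios were those of Glrx, a glutaredoxin, with 0.37 ± 0.13, Gclc, the catalytic subunit of the rate-limiting enzyme of glutathione synthesis, with -0.32 ± 0.09, and Ugdh, which makes UDP-glucuronic acid, with 0.31 ± 0.08.

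Of 16 other conjugating enzymes tested, 4 were higher and 2 lower at an adjusted p under 0.1, where 4.05% of all tested probes were higher and 2.66% lower. Nnmt, the nicotinamide N-methyltransferase, gave 1.31, 1.30, 0.93 and 0.88, with a mean of 1.11 ± 0.05, and rose at a limma adjusted p of 0.0479. Hnmt and Inmt, methyltransferases of histamine and of indoleamines, had 0.58 ± 0.06 and 0.50 ± 0.06 (limma adjusted p 0.0552 for both). Inmt gave 0.21, 0.31, 0.65 and 0.85 on replicates 1 to 4, higher on the Cy5 arrays. Tpmt, the thiopurine methyltransferase, had a mean of 0.48 but gave 1.13, 1.34, -0.42 and -0.14, so its orientations had opposite signs. Acsm2 and Acsm5, acyl-CoA synthetases that start glycine conjugation of carboxylic acids, had -0.80 ± 0.13 and -0.47 ± 0.08 (limma adjusted p 0.0722 and 0.0768).

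Of 9 tested genes on a list of conjugate exporters, not all of which carry conjugates, 3 were higher and none lower at an adjusted p under 0.1. Of all tested probes, 4.05% were higher and 2.66% lower. The higher ones were Abcb1a, a drug efflux pump, with 0.64 ± 0.06, and Abcc3, which carries glucuronides into blood, with 0.45 ± 0.09. The third was Abcb4, a phospholipid floppase, with 0.37 ± 0.05. On replicates 1 to 4 Abcb1a gave 0.15, 0.32, 1.11 and 0.98, higher on the Cy5 arrays. Abcb4 gave 0.48, 0.55, 0.22 and 0.23, higher on the Cy3 arrays. Abcc2 had 0.27 ± 0.11 (limma adjusted p 0.249). Among 14 sensors and regulators, Nfe2l2, which encodes NRF2, was above 0 on all arrays, at 0.26 to 1.09, with a mean of 0.74 ± 0.08 (limma adjusted p 0.0525), and Arnt, the partner of AHR, had -0.29 ± 0.05 (0.0892). Of 11 NRF2 targets other than glutathione transferases, 3 were higher and none lower at an adjusted p under 0.1, against 4.05% and 2.66% of all tested probes. They were Ces1g with 0.93 ± 0.11, Nqo1 with 0.67 ± 0.12 and Srxn1 with 0.57 ± 0.10, and 7 of the 11 means were above 0. Ces1g gave 1.23, 1.43, 0.81 and 0.23 on replicates 1 to 4, higher on the Cy3 arrays. At an unadjusted p under 0.05, 4 of the 11 were higher and 3 lower, against 12.9% and 10.3% of all tested probes. The lower ones were Gclc and its partner subunit Gclm, with -0.32 ± 0.09 and -0.14 ± 0.05 and all 4 arrays below 0 for both, and Me1. Me1 had a mean of -0.23 but gave -0.57, -0.86, 0.27 and 0.23, so its orientations had opposite signs. Of 11 targets of CAR and PXR, 1 was higher at an adjusted p under 0.1, Aldh1a7 with 0.43 ± 0.05, and 1 lower, Ces2a with a mean of -0.43. Ces2a gave -0.85, -0.79, -0.06 and -0.01, so its mean came almost wholly from the Cy3 arrays. Cyp2b10, the classical CAR target, gave -0.78, 2.09, -0.19 and 2.02, with signs that differ between arrays and a mean of 0.79 ± 0.62 (limma adjusted p 0.502). Cholangiocyte markers, which a liver sample can also carry, had a median of 0.21 over 8 genes, with 7 means above 0, and a summed normalized intensity of 1604 to 1831 in knockout and 1157 to 1486 in control mice, and their part in the members' ratios was not tested.

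The 16 member probes that were not tested belonged to 13 genes, of which 11 had no tested probe: Gstt4, Ugt2a1, Sult1c1, Sult2a1, Sult2a2, Sult2a3, Sult2a4, Sult2a6, Sult2b1, Sult3a1 and Sult6b1. Of these probes 10 were well above background in no mouse, and the other 6 in 1 or 2 of the 8 mice, so they have no ratio here. The Sult2a and Sult3a1 genes are expressed mainly in female mouse liver. Of the 9 Sult2 probes on the array, 6 are listed by accession for more than 1 gene. Of 18 genes with several tested probes, the probes of 2, Gstm6 and Ugt1a6b, differed in sign.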

How the data were processed

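Ratios of 83 member probes were taken from 4 two-colour arrays of 8 mouse livers. Per the labels' protocols, RNA was amplified before dye labelling. The deposited intensities are, per the file headers, those of Agilent Feature Extraction 10.7.3.1, with probe positions on mm9. The log2 ratios of the authors' value table lay within 0.0001 of log2 knockout over control from the processed intensities for all 43020 values on each array, with column medians of -0.05, 0.14, -0.18 and -0.18, so scale and direction are known and no centring was added.

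Background was corrected by normexp (offset 50), fitted without spots marked by the scanner software, since on replicate 1 a fit on all spots gave background means of -273 in Cy3 and -185 in Cy5. With the marked spots left out these were 4.26 to 6.53 in Cy3 and -9.96 to -9.67 in Cy5 over the 4 arrays. Loess was applied within arrays, outlier spots (194 to 230 per array) were dropped and spots of a probe were averaged. No member lacked a value on any array. Probes entered the test if at least 3 of the 4 mice of a genotype passed the scanner software's background mark. The fit in limma 3.58.1 under R 4.3.3 had a dye intercept, with two-sided p-values adjusted by Benjamini-Hochberg over all 20831 tested probes and a threshold of 0.05. Counts at an adjusted p of 0.1 are descriptions. The script was tested on simulated data. Normalized log2 intensities of single mice are the 2 dyes after loess and quantile scaling of average intensity between arrays. Names came from RefSeq accessions for 77 of the 83 probes, and promoters from RefSeq on GRCm38.p6.

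The text names Ppp1r8, every pi-class probe, every member at an adjusted p under 0.1, up to 4 members per family with the largest mean ratio and up to 4 genes per list, and others where said or to complete a gene or a list. The members and lists were chosen with earlier results of these data known. The 4 arrays limit the precision. All were on 1 slide.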

Additional observations from a re-analysis of the deposited data

Results flagged for a closer look

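Gstz1, the zeta-class transferase of tyrosine breakdown, had 1 array far from the others. Replicate 2 gave a log2 ratio of -0.29, against -0.08, -0.09 and -0.11 on replicates 1, 3 and 4, and its gap to the nearest array was 0.874 of the whole range, above Dixon's critical value for 4 values. Chance alone marks about 1 in 20 such groups, and 1 of the 50 checked here was marked. No cause was tested.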

How the results depend on the processing

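Medians of the 10 families with at least 2 tested probes kept their sign in every setting run. Leaving out 1 replicate moved that of Gsta from 0.07 to 0.31, Gstp from -0.72 to -0.30, Mgst from 0.25 to 0.72, Ugt3 from 0.08 to 0.21 and Sult1 from 0.30 to 0.84. The median of the Gsto probes was -0.63 with the processed signals and -0.63 with the authors' table, and that of the Ugt3 probes 0.42 with 1 probe per gene. Members at an adjusted p under 0.05 numbered 0 in the main setting, 1 with median centring, 2 with trend and robust moderation, 1 with no filter and 22 in the separate-channel fit, where 10.0% of all probes were called higher and 7.58% lower. At an adjusted p under 0.1 the higher members, 4 in the main setting, numbered 2 with normexp fitted on every spot, 1 with processed signals, the authors' table, no dye term or 1 probe per gene, 10 with median centring, 9 with trend and robust, and 23 in the separate-channel fit. Over all tested probes the higher share was 4.05% in the main setting and 6.9%, 6.56% and 14.4% in these last 3. That share was 2.05% with normexp on every spot and 3.0% with processed signals or the authors' table. With no dye term it was 1.14%, and with 1 probe per gene 3.61%. The lower members, 1 in the main setting, numbered 0 with normexp on every spot and 8 in the separate-channel fit. They numbered 2 with no background correction, median centring, no filter or the stricter filter. For these the lower share of all tested probes was 2.88%, 2.34%, 1.54% and 3.01%, in that order. It was 2.66% in the main setting, 1.72% with normexp on every spot and 12.1% in the separate-channel fit. Leaving out 1 replicate gave 0 to 7 higher and 0 to 3 lower, where 0 to 0.811% of all tested probes were higher and 0 to 0.49% lower. At an unadjusted p under 0.05 in limma the 23 higher became 15 with 1 probe per gene and 12 to 24 without 1 replicate. In the main setting 12.9% of all tested probes were higher and 10.3% lower at that threshold. Its shares in the other settings are not given. The 8 lower became 5 with processed signals, the authors' table, median centring or 1 probe per gene, 3 with no dye term, and 2 to 7 without 1 replicate. Of the 67 tested members, 17 changed sign in at least 1 setting, 15 of them when 1 replicate was left out, and all had a main ratio of at most 0.152 in size. Of the 40 probes taken by the naming rule, 6 did so. Gstk1 was 0.047 and Sult5a1 0.049 with median centring, and Ugt1a6a 0.00061 with normexp on every spot. Without 1 replicate Gsta3 ranged from -0.21 to 0.26, Gstk1 from -0.033 to 0.0061, Gsto1 from -0.39 to 0.091, Gstt2 from -0.042 to 0.22, Ugt1a6a from -0.028 to 0.0084 and Sult5a1 from -0.25 to 0.22. The causes were not tested. Slide as a block was not run, since all arrays were on 1 slide. Each ratio already pairs the 2 mice of an array, and the labels give no further pairing.

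The filter on dim probes leaves 11 member genes without a ratio, and the offset narrows the ratios of dim probes such as Gsto2, Mgst2 and Sult1e1. With 4 arrays and a dye term, 2 degrees of freedom remain, and a difference between dye orientations cannot be told apart from one between mice. Several probes read more than 1 gene.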
